A study of Caenorhabditis elegans with 2 samples.

Results

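The genes described here encode the COMPASS complex of Caenorhabditis elegans, which places methyl groups on lysine 4 of histone H3. They are set-2, ash-2, wdr-5.1, rbbp-5, dpy-30, cfp-1 and hcf-1, taken as a list for their function at CpG-rich promoters, and all 7 were found among the 19973 protein-coding genes of the nuclear chromosomes. What was measured is the binding of the homeobox protein CEH-100 to chromatin, as peaks from chromatin immunoprecipitation followed by sequencing (ChIP-seq). Both libraries came from whole worms of strain RW12233, in which the endogenous ceh-100 gene carries a CRISPR insertion coding for TY1, EGFP and 3xFLAG (allele st12233[ceh-100::TY1::EGFP::3xFLAG]), and an antibody against GFP was used. The worms were young adults 64 hours old, grown from starved first-stage larvae, and formed a single group of 2 biological replicates, so no condition can be compared with another. All values come from 1 edited strain and from whole animals, and they do not tell in which cells the tagged protein lay at a gene. The lists hold no expression values against which the labelled stage or tissue could be checked, and no control library was analysed here.

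COMPASS writes H3K4 methylation at the start of genes, and it is a catalytic subunit held in a core of scaffold proteins. SET-2 is the worm SET1 enzyme. ASH-2, WDR-5.1, RBBP-5 and DPY-30 form the core that SET1 and MLL type enzymes share, and CFP-1 is the CXXC-domain subunit that recognises unmethylated CpG and brings SET-2 to promoters. HCF-1 is the worm host cell factor, whose mammalian homologue binds SET1 and MLL complexes. In worms, H3K4 methylation by these proteins is known for its part in germ line function and lifespan, and DPY-30 also acts in X chromosome dosage compensation.

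The authors deposited peak lists of several kinds. In the conservative set, 1685 nuclear peaks had to be reproducible between the replicates, at an irreproducible discovery rate (IDR) of at most 0.01, which equals a score of at least 830 on a scale up to 1000. A further thresholded set by the authors, called the other set here, holds 1884 nuclear peaks. Ranked lists also keep peaks that failed the threshold. The main joint ranked list holds 20827 nuclear peaks, and a second joint ranked list holds 21765. Signal here means the enrichment that the authors give for each peak, which has no unit and is not scaled between lists. A gene was counted when a peak summit lay within 1000 bp of any annotated start, in the WBcel235 assembly.

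The sequences under 4 of the 5 thresholded joint summits are shown, and they hold from 3 to 10 CG. That of dpy-30 is left out because an annotated untranslated region lies in its window. Each runs 5′ to 3′ over 50 bp on either side of the joint summit, on the strand of the COMPASS gene, in WBcel235, and capitals mark CG dinucleotides. The window at ash-2 is chrII:11980273-11980373 on the plus strand, that at set-2 chrIII:4930412-4930512 on the minus strand, that at rbbp-5 chrII:6097607-6097707 on the plus strand and that at cfp-1 chrIV:14083705-14083805 on the plus strand.
ash-2: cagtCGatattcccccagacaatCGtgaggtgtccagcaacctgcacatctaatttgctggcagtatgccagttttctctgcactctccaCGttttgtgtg
set-2: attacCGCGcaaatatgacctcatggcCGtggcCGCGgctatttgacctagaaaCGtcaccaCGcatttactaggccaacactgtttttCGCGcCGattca
rbbp-5: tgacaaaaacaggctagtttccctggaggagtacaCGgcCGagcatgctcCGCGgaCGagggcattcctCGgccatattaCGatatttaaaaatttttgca
cfp-1: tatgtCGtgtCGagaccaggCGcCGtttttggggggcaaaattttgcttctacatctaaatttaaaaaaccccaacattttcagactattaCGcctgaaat

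In the conservative set, 3 of the 7 COMPASS genes were counted as having a peak, namely set-2, ash-2 and cfp-1, against 7.28% of all protein-coding genes. The other set added rbbp-5 and dpy-30 and so held 5 of 7, against 8.05% of all genes. The replicates' own thresholded lists each held 3 of 7, again set-2, ash-2 and cfp-1, against 5.44% of genes in replicate 1 and 6.48% in replicate 2. The genes thus called span a wide range of signal, and for rbbp-5, dpy-30 and cfp-1 the summit lay closer to the start of a different gene. The genes were listed with earlier results of these data known, so these counts carry no test.

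Ranked lists, which reach down to very weak peaks, covered nearly all the genes and also a large part of the genome. The main joint ranked list had a summit near 6 of 7, all but wdr-5.1, against 34.5% of all genes. The second joint ranked list also had 6 of 7, with wdr-5.1 in and hcf-1 out, against 35.6% of genes. In the ranked lists of the replicates, 7 of 7 genes had a summit in replicate 1, against 46.6% of genes, and 6 of 7 in replicate 2, against 36.2%. Presence in a ranked list alone therefore says little about a gene.

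**Figure D1:**
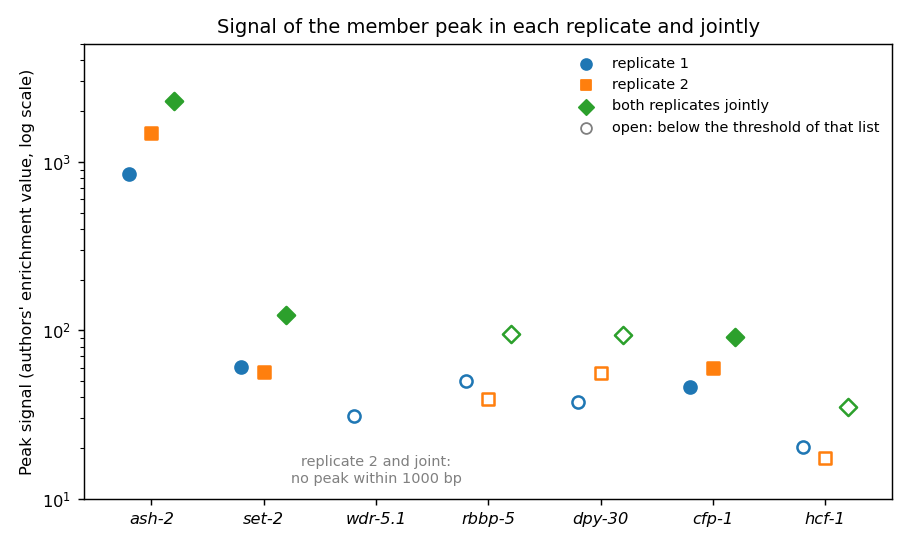
Signal of the main joint peak within 1000 bp of a start of each COMPASS gene and of the matching peak in each replicate (vertical log axis, no unit) in replicate 1 (circles), replicate 2 (squares) and the joint lists (diamonds); filled symbols passed the threshold of that replicate, or of the conservative set for the joint value. The ash-2 peak, at 2296 jointly, stands far above set-2 at 123 and cfp-1 at 91.0, and rbbp-5, dpy-30 and hcf-1 have open symbols throughout. For wdr-5.1, without a joint peak there, the circle is the ranked peak of replicate 1, at 30.8.

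The catalytic gene set-2 (WBGene00004782, chromosome III, 4922427 to 4930204, minus strand) had a single conservative peak, at 4930304 to 4930619, with a signal of 123. The signal was 60.6 in replicate 1 and 56.8 in replicate 2, so the replicates were nearly equal, with a ratio of replicate 2 to replicate 1 of 0.937. The peak passed the threshold in each replicate and ranked 958 of 1685 in the conservative set, above 43.1% of its peaks, which puts it near the middle. Its IDR was 0.000922. The summit, at 4930462, was intergenic and 258 bp upstream of the outermost set-2 start, and no other gene starts within 1000 bp of it. Of the conservative peaks near a gene of the complex, that of set-2 is the 1 that no other gene shares.

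The core gene ash-2, homologue of human ASH2L (WBGene00012458, chromosome II, 11979838 to 11989050, plus strand), carried the strongest peak of the list. Its signal was 2296 jointly, 842 in replicate 1 and 1477 in replicate 2. The peak, at 11980145 to 11980477, ranked 17 of 1685 in the conservative set, above 99.0% of its peaks, and ranked 28 of 1166 in replicate 1 and 12 of 1333 in replicate 2. Its IDR of 1e-05 is the lowest value that the lists give. Replicate 2 was the higher of the pair by 1.75 times, a ratio above 97.3% of those at conservative peaks. Among 27 peaks whose joint signal was within 1.5-fold, ash-2 itself included, the ratio had a median of 1.02. The range from the 5th to the 95th percentile was 0.817 to 1.47. The ash-2 ratio was the highest of the 27, so it lay outside that range by construction. The depth of the libraries is unknown, and its part in the ratio was not tested.

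The annotation around the ash-2 peak holds several starts. The summit at 11980323 lay 103 bp upstream of the outermost coding start of ash-2, at 11980426, and 479 bp upstream of Y17G7B.20, which starts at 11979844 on the opposite strand. A non-coding ash-2 transcript starts at 11979838, and the summit falls in one of its exons. Replicate 2 alone had a further thresholded peak with a signal of 74.8, with a summit at 11979889 that lies 51 bp inside that transcript. In the main joint ranked list, 3 more peaks within 1000 bp of an ash-2 start, with signals of 72.9, 16.8 and 10.7, lay further upstream in Y17G7B.20. All were far weaker than the main peak.

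The peaks closest to that of ash-2 in the signals of both replicates were at C26B2.7, at snr-1 with snx-13, and at W09B6.4, by Euclidean distance of the log2 signals over the 2 replicates. At C26B2.7 the signal was 912 in replicate 1 and 1367 in replicate 2, a log2 distance of 0.16. At snr-1, a core spliceosomal gene, and snx-13 it was 997 and 1415, a log2 distance of 0.25. At W09B6.4 it was 970.5 and 1084, a log2 distance of 0.49. In all of these replicate 2 was also the higher, by less than at ash-2, with 1.42 times at snr-1 and 1.12 at W09B6.4. These peaks were picked for closeness to ash-2 in both replicates, so a higher replicate 2 follows from that choice. The ash-2 ratio was also the highest among peaks of like joint signal, so the smaller ratios are no separate finding.

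The core gene rbbp-5, homologue of human RBBP5 (WBGene00017683, chromosome II, 6097830 to 6099645, plus strand), had a peak that missed the conservative set narrowly. The joint signal of 94.7 compared with 50.1 in replicate 1 and 38.9 in replicate 2, a ratio of 0.777. The score in the main joint ranked list was 821, just under 830, with an IDR of 0.0105, whereas the other set listed the peak with a score of 923. In the replicates' own lists the scores were 86 and 282, both far under the threshold. The summit at 6097657 lay in intergenic sequence between divergent genes, 173 bp upstream of rbbp-5 and 60 bp upstream of tpp-2, a tripeptidyl peptidase gene on the opposite strand. The nearest conservative peak was 36137 bp from the rbbp-5 start.

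The core gene dpy-30 (WBGene00001088, chromosome V, 12191519 to 12192385, plus strand) had a peak of almost the same joint signal, 93.7. Its replicates were 37.7 and 56.2, with replicate 2 the higher by 1.49 times, where rbbp-5 had replicate 1 the higher. The main joint score was 774, with an IDR of 0.0137, and the other set gave 941. Scores within the replicates were 62 and 228. The summit at 12192331 lay 812 bp downstream of the dpy-30 start, inside a dpy-30 intron, and only 56 bp inside rnp-1, an RNA-binding protein gene on the same strand, in its coding sequence. A second, weaker peak in the main joint ranked list lay 161 bp from the dpy-30 start, with a signal of 56.1 and a score of 123.

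The core gene wdr-5.1, homologue of human WDR5 (WBGene00006474, chromosome III, 3705285 to 3706784, plus strand), had no thresholded peak within the window. The nearest conservative summit was 9682 bp away. In the main joint ranked list the nearest summit was 1498 bp upstream, with a signal of 58.4, well outside the window. Of the conservative summits counted for the COMPASS genes, that of cfp-1, at 916 bp, lies nearest the limit from within. Replicate 1 alone had a ranked peak of signal 30.8 at 921 bp upstream, in the coding sequence of C14B1.3. The second joint ranked list placed 3 peaks of 22.5, 18.7 and 11.6 within the window, each with the score of 40 that is the lowest in that list.

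The CpG-binding subunit gene cfp-1 (WBGene00009924, chromosome IV, 14077435 to 14083568, plus strand) was in the conservative set, but its peak lay beyond the end of the gene. The signal was 91.0 jointly, 46.1 in replicate 1 and 60.2 in replicate 2, a ratio of 1.31. The peak, at 14083597 to 14083912, ranked 1465 of 1685, above only 13.1% of conservative peaks, with an IDR of 0.00285. The summit at 14083755 was within the window only because of a short annotated transcript at the 3′ end of cfp-1, which starts at 14082839. The next gene on the strand is F52B11.2. The summit falls in an annotated intron of F52B11.2, 49 bp upstream of the nearest start of that gene. Nearer the main cfp-1 starts, the joint ranked list had only a weaker peak of 46.7, with a summit at 14079813 that lies in an intron, 444 bp upstream of an internal start.

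The host cell factor gene hcf-1 (WBGene00001827, chromosome IV, 7770770 to 7774275, minus strand) had only a weak ranked peak. Joint signal was 35.0, and the replicates had 20.4 and 17.6, a ratio of 0.865. A ranked peak of 20.8 in replicate 2, with no joint counterpart, lay 170 bp upstream in swd-2.2. The joint peak ranked 12567 of 20827 in the main joint ranked list, with an IDR of 0.798 and a score of 40. The summit at 7774018 lay 257 bp inside hcf-1, and swd-2.2, a homologue of the SET1 complex subunit WDR82, starts 393 bp from it on the opposite strand. The nearest conservative summit was 11586 bp from the hcf-1 start.

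**Figure D2:**
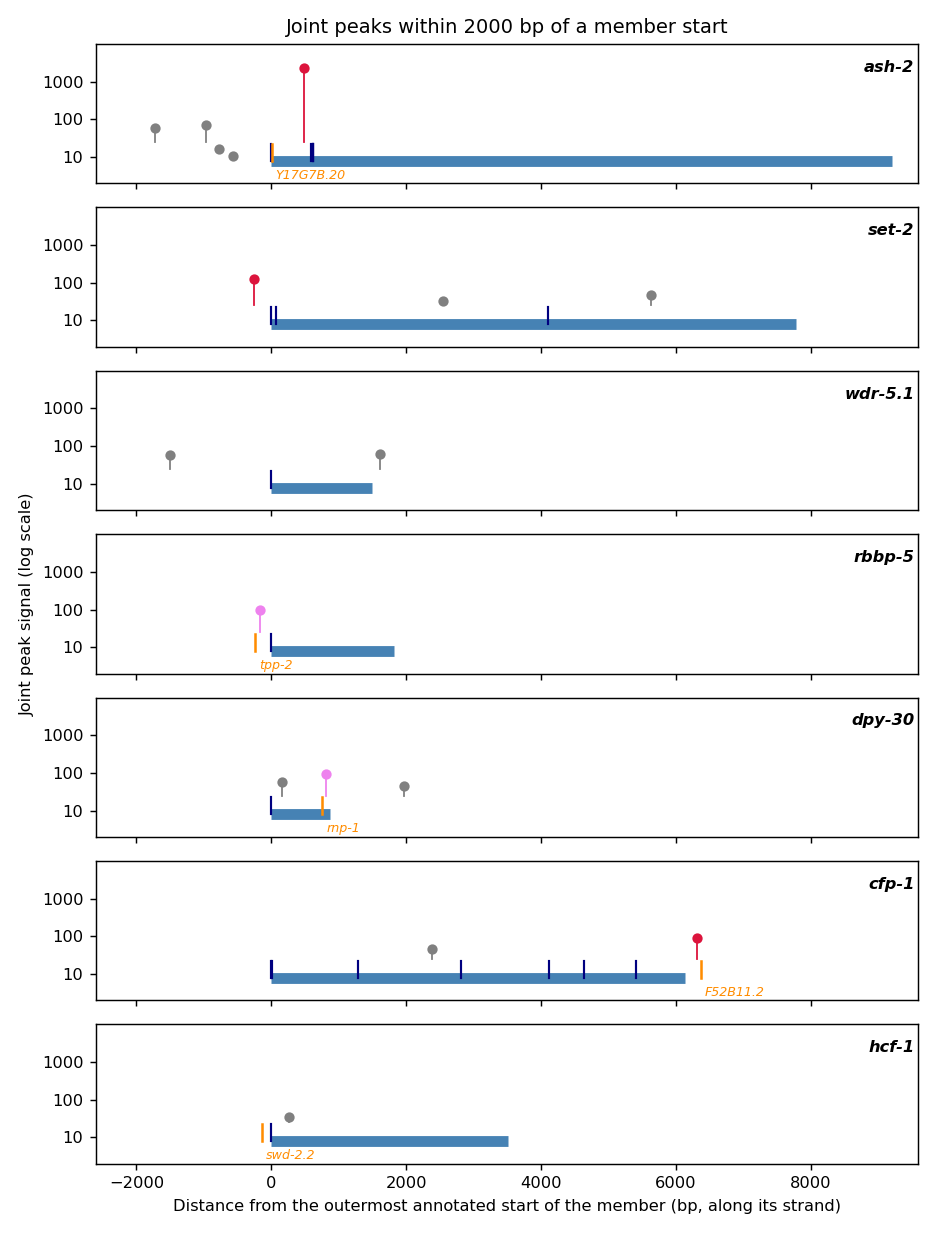
Position of the joint ranked peaks within 2000 bp of a start of each COMPASS gene (horizontal axis, distance in bp along the gene's strand from its outermost start) against joint signal (vertical log axis, no unit). Bars are the genes, dark ticks their annotated starts, orange ticks the nearest start of the other gene at the main peak; red points are in the conservative set, pink points in the other thresholded set alone, grey points in neither. The red point of cfp-1 lies past the end of its bar, and wdr-5.1 has no point within 1000 bp of its start.

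Of the 5 thresholded peaks, 4 have another gene start within 1000 bp, and set-2 alone has none. The COMPASS gene was the nearest gene at ash-2 and set-2 only. At rbbp-5, dpy-30 and cfp-1 the nearest start was that of tpp-2, rnp-1 and F52B11.2. Peaks shared by genes are common in the conservative set. Of its 1685 peaks, 1171 (69.5%) have a protein-coding gene start within 1000 bp, and 469 of these (40.1%) have 2 or more genes there. Of the 1171, 888 (75.8%) lay upstream of the nearest start, at a median distance of 219 bp, on either side. The peaks of ash-2, set-2, rbbp-5 and cfp-1 were likewise upstream of the nearest start, and that of dpy-30 was not. Of these, the peaks of rbbp-5 and dpy-30 are in the other set alone, for which these shares were not computed.

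The replicate ratio at most of these peaks was within the spread of the conservative set. Over 1670 conservative peaks with a signal in both replicates, the ratio of replicate 2 to replicate 1 had a median of 1.02. Some of the 1670 match the same replicate peaks as another, so some pairs of signals are counted more than once. The range from the 5th to the 95th percentile was 0.668 to 1.61. The ratios at set-2, rbbp-5, dpy-30, cfp-1 and hcf-1 lay inside this range, and that at ash-2 above it. At hcf-1 the replicate 2 signal of 17.6 was close to 17.1, the lowest in that ranked list. The replicate 1 signal was 20.4, where the lowest was 14.1. The matched hcf-1 summits differed, at 7773900 in replicate 1 and 7774057 in replicate 2. The hcf-1 ratio therefore does not show that the replicates agree there. The replicates were on different sides by gene, since replicate 1 was higher at set-2, rbbp-5 and hcf-1 and replicate 2 at ash-2, dpy-30 and cfp-1.

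**Figure D3:**
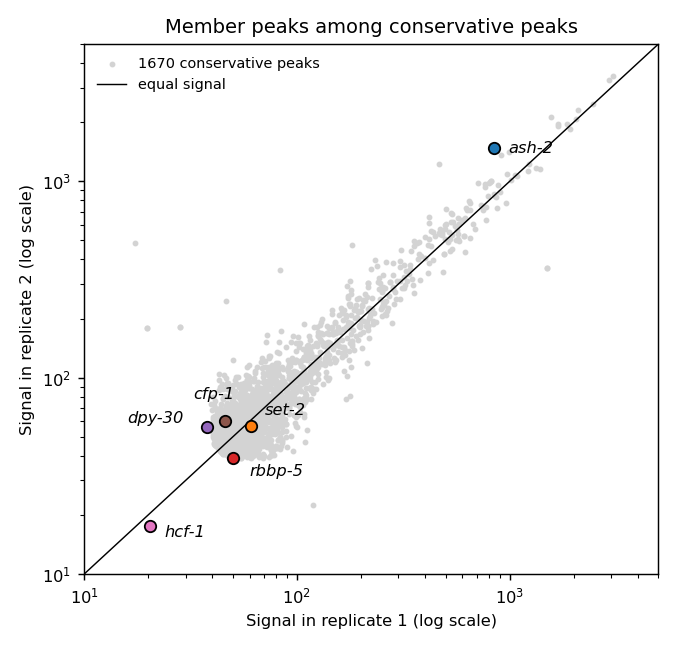
Signal in replicate 1 (horizontal log axis) against replicate 2 (vertical log axis), both without a unit, for 1670 conservative peaks (grey) and the main peaks of 6 COMPASS genes (coloured); the line marks equal signal. The ash-2 point, at 842 and 1477, is above the line at the upper end of the cloud, and the others lie in or below the dense lower part of the cloud.

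Score and signal did not order the weaker genes alike. In replicate 1 the rbbp-5 peak had the higher signal, 50.1 against 46.1 at cfp-1, but a score of 86 against 916. In replicate 2 the dpy-30 peak, at 56.2, nearly equalled set-2, at 56.8, but had a score of 228 against 1000. The 3 genes of lower joint signal that were thresholded anywhere, rbbp-5, dpy-30 and cfp-1, lay between 91.0 and 94.7. The gene of lowest signal among them, cfp-1, was the 1 in the conservative set.

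CpG content was measured as the CpG number observed over that expected from the C and G content. Within 50 bp on either side of the summit it ranged from 0.498 at ash-2 to 1.66 at hcf-1, where all conservative summits had a median of 1.2 and quartiles of 0.919 and 1.48. The ash-2 window holds 3 CG, as its printed sequence shows, and its value was above only 4.33% of conservative summits. The set-2 window holds 10 CG, with a value of 1.55, above 80.8% of them, and within 150 bp on either side its value was 1.21, above 48.3%. The values were 1.18 at rbbp-5, 0.938 at dpy-30 and 1.21 at cfp-1, all between the quartiles. In the same wider window the ash-2 value was 1.14. That window held 8 CG, against a median of 14 at conservative summits. Its GC content was 30.9%, against 49.5% in the central window, which makes the number expected per base smaller.

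In the promoters, taken as 250 bp before to 50 bp after the outermost coding start, all 7 COMPASS genes lay above the median of 1.02 over all genes, whose quartiles were 0.784 and 1.29. The values were 1.17 at ash-2, 1.32 at set-2, 1.37 at wdr-5.1, 1.59 at rbbp-5, 1.12 at dpy-30, 2.21 at cfp-1 and 1.96 at hcf-1. The highest, cfp-1 and hcf-1, were above 99.4% and 98.0% of all promoters. The cfp-1 promoter has a GC content of only 24.3%, which makes the expected number small. By number, the promoters of ash-2 and cfp-1 held 8 and 9 CG, against a median of 9 over all promoters. Those of the other COMPASS genes held from 10 to 14. Of the 7 promoters so taken, only those of ash-2 and rbbp-5 held a summit of the conservative or the other set. That of rbbp-5 was in the other set alone. Since the list was chosen for function at CpG-rich promoters, these values describe it and support nothing further.

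**Figure D4:**
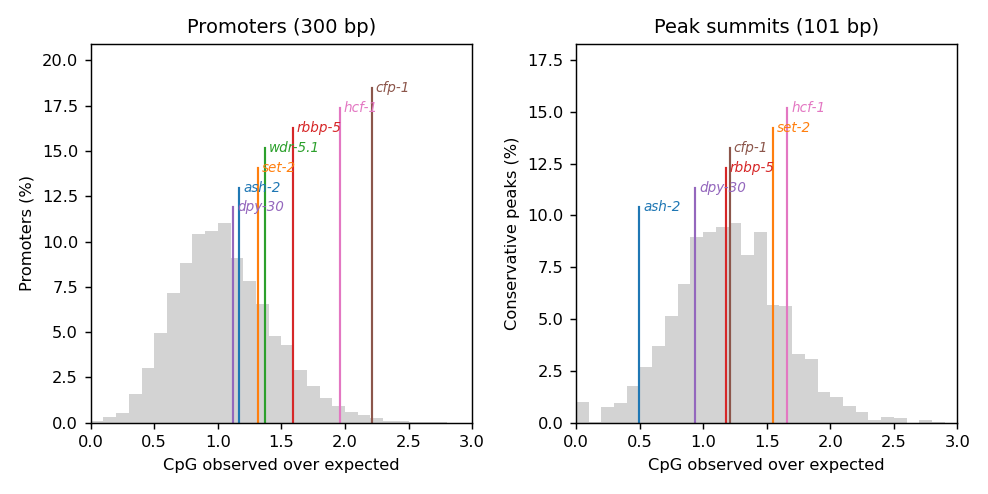
CpG observed over expected (horizontal axes, a ratio) in promoters of all protein-coding genes (left, 300 bp) and in conservative peak summits (right, 50 bp on either side), as the percent of each set per bin (grey), with the COMPASS genes as coloured lines whose height only separates the names. In promoters all 7 lines lie above the median of 1.02, and at summits ash-2, at 0.498, lies in the lower tail.

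Homeobox proteins are known to bind TAAT cores, so TAATTA was searched on both strands, and TAAT or ATTA, which are the same letters on opposite strands and overlap within TAATTA. No COMPASS gene with a joint peak had TAATTA within 50 bp of its summit. It is present at 1.78% of conservative summits and in 6.02% of flanking windows centred 300 bp away. TAAT or ATTA was present at all 6 summits, against 39.5% of conservative summits and 64.6% of flanks. The sets are unlike, since the summits of rbbp-5, dpy-30 and hcf-1 are not in the conservative set. GC content was 35.6% at dpy-30 and hcf-1 and 40.6% at cfp-1, under the conservative median of 47.5%. At ash-2, set-2 and rbbp-5 it was above that median, and the part of base content was not tested. In the ash-2 sequence above, TAAT begins at the summit base itself. CGCG, searched on both strands after the data were seen, occurred 3 times in the set-2 sequence and once at the summit of rbbp-5, and not at ash-2, dpy-30, cfp-1 or hcf-1. It is in 45.5% of conservative summits and 11.9% of flanks.

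Genes that work beside COMPASS on H3K4 were counted in the same way. Of 11 such genes, 2 had a conservative summit, against 7.28% of all genes. The MLL type methyltransferase gene set-16 had a signal of 443, with 179 in replicate 1 and 266 in replicate 2, and the summit lay 154 bp upstream of set-16 and near drr-2. The WDR5 paralogue wdr-5.3 had 109.7, with 41.0 and 75.7, and shares its peak with the DNA repair nuclease gene mre-11. The others without a conservative summit include the MLL partners utx-1 and pis-1 and the H3K4 demethylase genes rbr-2 and spr-5, whose strongest joint ranked signals were 50.4, 64.3, 53.7 and 28.9. In the main joint ranked list 7 of the 11 had a summit, where the share over all genes is 34.5%.

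Of 20 other histone methylation genes, 3 had a conservative summit, against 7.28% of all genes, and 5 one in the other set, against 8.05%. In the main joint ranked list 16 of the 20 had a summit, against 34.5%. The demethylase gene jmjd-1.2 had a signal of 2605, higher than that at ash-2, with 1332 in replicate 1 and 1169 in replicate 2, and F29B9.11 shares the peak. The methyltransferase genes set-4 and set-25 had 207 and 136. Their replicates were 99.7 and 106 at set-4, and 85.0 and 53.0 at set-25. The other set added set-26, with 102, and lin-59, with 66.6. Of 9 dosage compensation genes, a process in which DPY-30 also acts, 0 had a summit in the conservative or the other set, and 4 had one in the main joint ranked list. With shares of 7.28%, 8.05% and 34.5% over all genes, these counts out of 9 are close to the background and are not a result about the list.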

How the data were processed

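Peaks were called by the authors on ce11, per the labels; which aligner and peak caller they used is not stated in the labels. Column 7 of each list is the authors' signal per peak, the score is the authors' scaled IDR score, and the ranked lists add the authors' deposited −log10 of the IDR, limited to 5. No read counts are given, so depth is unknown and no interval or adjustment for it was possible. Peak lists of the replicates were compared by overlap with the joint peak.

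Summits were assigned to starts of Ensembl release 115 on WBcel235, within 1000 bp, and peaks off the nuclear chromosomes were left out. Calculations used Python 3.11.15, numpy 2.4.6 and pandas 2.3.3, and the plots matplotlib 3.10.9. On simulated data, 200 planted peaks gave 0 wrong assignments. Genome sequence came from RefSeq. The gene list, the related lists and the rules were chosen with earlier results of these data known. Genes named are the 7, those sharing their peaks, up to 4 of highest conservative signal per related list and the 3 peaks most like that of ash-2. Weaker genes of the related lists, C14B1.3 and CGCG were added after their values were seen. No test was made: the group is single, and the labels give 2 biological replicates. Alternatives were other windows, lists, IDR limits, start sets and single replicates.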

Additional observations from a re-analysis of the deposited data

How the results depend on the processing

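The number of COMPASS genes with a conservative summit, 3 of 7, became 1 with a window of 200 bp, where ash-2 remained, and 5 in the other thresholded set, with rbbp-5 and dpy-30 added. It was 2, ash-2 and set-2, with a window of 500 bp, an IDR of at most 0.001 or only the nearest gene per summit. It was 3 with a window of 2000 bp or with overlap of the peak interval. Without replicate 1 it was 3, against 6.48% of all genes, and without replicate 2 it was 3, against 5.44%. Of 2 settings chosen after seeing the data, starts of coding transcripts gave 3 and the outermost start alone gave 2, without cfp-1. The share over all genes was 8.05% in the other thresholded set. It was not computed for the other windows, the stricter IDR, the nearest gene, interval overlap or the other start sets. Those counts therefore do not tell whether the distance from the background changed. For the related H3K4 genes the count was 2, and from 1 to 2 when a replicate was left out: set-16 alone was thresholded in replicate 1. Divided by the median ratio, the ash-2 ratio was 1.72. The joint list's own replicate columns carry no replicate number. Taken as the larger over the smaller signal, they gave the same ratios, and which replicate was higher could not be checked there. Within 150 bp on either side, the CpG value of ash-2 rose from 0.498 to 1.14 and that of cfp-1 from 1.21 to 1.30. That of set-2 fell from 1.55 to 1.21. The cfp-1 promoter, which does not hold the summit, gave 2.21. No paired analysis was possible because only 1 group was present and no result comes from a test. The lists give no depth, so a gene without a peak cannot be told apart from one under the reach of these libraries.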
